A study of Mus musculus with 9 samples.

Results

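The genes that flank Nfe2l2 on mouse chromosome 2 were followed in cells that carry or lack it. Nfe2l2 encodes Nrf2, which drives transcription of genes for antioxidant defence and detoxification. The set holds 32 genes chosen for their place around Nfe2l2, whatever they encode. For each gene the probe set with the highest mean log2 signal among those of 1 symbol was used, which gave 30 of the 18193 genes with such a probe set. Of the other 2, Hnrnpa3 was covered by 4 probe sets that it shares with a second symbol, and Rapgef4 had no probe set under its name in the annotation used here. The signal filter kept 25 of the 30 for testing, beside 11620 genes tested in all. Sp5, Gad1, Pde11a, Osbpl6 and Ppp1r1c fell below it.

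The question was which of these genes differed from wild type in both groups of knockout cells and did not differ between them, here called the shared knockout pattern. As background, a mouse line made by gene targeting keeps a stretch of chromosome from the targeted embryonic stem cells around the altered gene, and backcrossing shortens that stretch only slowly. Genes in it can carry other alleles than the same genes in wild-type animals, and are known as passengers. A change of allele can alter how much transcript is made, or how well it binds an array probe. The stem cell strain, the number of backcrosses and the length of any such stretch are not stated here, and no genotype was measured.

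The labels describe lung cells of the type II kind, the epithelial cells that make surfactant, from female mice of 2 months of a strain called ICR10. There were 3 groups of 3 arrays: Nrf2+/+ cells (wild type), Nrf2-/- cells (knockout), and Nrf2-/- cells supplemented with GSH, which commonly stands for glutathione. Before culture, macrophages had been depleted on IgG-coated plates and fibroblasts by letting them adhere, and the cells then grew for 5 days with keratinocyte growth factor. No source used here states the dose or duration of GSH. The field for treatment is filled in as none for every group. Each group had 2 arrays in a set numbered 2 in the titles and 1 array in a set numbered 3, and no source says what the number stands for. The design text speaks of 3 isolated sets of cells, but the labels do not say which arrays had their own animals or cultures. The p-values therefore reflect array-to-array spread, part of which may be technical.

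Nfe2l2 itself gave signals of 3878.6, 3889.8 and 4172.8 on wild-type arrays, 73.6, 77.4 and 28.7 on knockout arrays and 45.3, 46.2 and 33.3 with GSH, by its bright probe set. Its other probe set, below the filter, read 39.2, 51.6 and 35.8 in wild type, 37.0, 68.6 and 34.4 in knockout and 188.9, 133.9 and 121.0 with GSH. Signals are in arbitrary units. Both knockout groups lay far below wild type by the bright probe set, while the dim one was above the level of no signal on 1 wild-type, 1 knockout and all 3 GSH arrays. Where either lies relative to the deletion is not stated. A level of 43.5 to 82.9 by array, the 95th percentile of 27 control probe sets for bacterial genes, was taken as the level of no signal.

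Other features of the arrays also ran with the groups. Xist, the RNA that coats the silenced X chromosome, read 132.2 to 187.8 in wild type and 2443.8 to 4776.6 on the 6 knockout arrays, and the Y-linked gene Eif2s3y 701.3 to 936.3 and 1.5 to 24.4, while the labels call all mice female. Xist and Eif2s3y split the arrays in the same way as genotype. In comparisons with wild type, a difference that goes with sex cannot be told apart from one that goes with genotype. Of 8 tested genes known to be driven by Nrf2, 8 were lower in knockout than in wild type (14.6% of all probe sets were). With GSH 6 were lower and 1, Hmox1, higher than in wild type (22.3% and 22.5% of all probe sets), and 5 were higher and 1 lower than in knockout (18.4% and 17%). Of 10 macrophage markers, all were above the control level on every array. Their summed signal was 42335 to 45949.8 in wild type, 69679.6 to 90495 in knockout and 84716 to 104261 with GSH. All 10 were called higher in each knockout group than in wild type, and 4 were higher and 2 lower with GSH than in knockout. All 9 fibroblast markers were also above it on every array, with sums of 56014 to 58596, 71533 to 96721 and 15952 to 19339 in the same order. Of these 9, 6 were higher and 1 lower in knockout than in wild type, and all 9 were lower with GSH than in either other group. Over all probe sets 14.6% were higher and 14.6% lower in knockout, with the shares for GSH as above. The 10 measured type II markers summed to 5165 to 6199, 5644 to 6376 and 9495 to 10714. Of them 8 were above the control level on every wild-type array. Of the 8 tested, 2 were higher and 1, Sftpd, lower in knockout than in wild type. Sftpc, the surfactant gene most specific to type II cells, was above the control level on no wild-type array and on all knockout and GSH arrays (mean 37.3, 89.1 and 107.8).

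The promoters of the 3 tested genes with the shared knockout pattern are printed here with that of Nfe2l2, to show the regulatory sequence next to each start. Nrf2 acts through a short site, the antioxidant response element, whose core is TGACNNNGC. Sequences are from RefSeq, build GRCm38.p6, 250 bases before the farthest upstream start, 5′ to 3′, with matches to that core on either strand in capitals.
Cwc22, chr2:77946357-77946606, minus strand: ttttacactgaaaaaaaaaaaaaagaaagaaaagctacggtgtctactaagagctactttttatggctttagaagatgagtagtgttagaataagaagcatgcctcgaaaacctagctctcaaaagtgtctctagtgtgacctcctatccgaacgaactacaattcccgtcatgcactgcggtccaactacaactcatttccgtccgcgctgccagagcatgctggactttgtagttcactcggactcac
Plekha3, chr2:76675065-76675314, plus strand: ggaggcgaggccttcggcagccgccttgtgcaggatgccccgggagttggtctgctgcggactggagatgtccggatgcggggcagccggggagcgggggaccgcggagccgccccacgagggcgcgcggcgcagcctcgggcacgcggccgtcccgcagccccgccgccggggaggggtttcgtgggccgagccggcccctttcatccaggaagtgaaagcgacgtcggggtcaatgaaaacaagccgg
Tlk1, chr2:70825481-70825730, minus strand: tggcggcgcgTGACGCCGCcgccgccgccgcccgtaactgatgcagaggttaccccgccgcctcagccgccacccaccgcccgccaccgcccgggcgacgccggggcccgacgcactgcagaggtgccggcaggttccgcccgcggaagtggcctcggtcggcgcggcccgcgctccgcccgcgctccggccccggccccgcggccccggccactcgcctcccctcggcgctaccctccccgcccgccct
Nfe2l2, chr2:75704664-75704913, minus strand: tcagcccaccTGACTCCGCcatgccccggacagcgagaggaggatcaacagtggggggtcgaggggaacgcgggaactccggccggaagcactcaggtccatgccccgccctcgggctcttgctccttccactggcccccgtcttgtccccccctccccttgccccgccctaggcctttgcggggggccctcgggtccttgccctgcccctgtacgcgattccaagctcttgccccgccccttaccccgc
The window of Tlk1 held 1 match, 240 bases before its start, and that of Nfe2l2 held 1. Those of Cwc22 and Plekha3 held none. Of the 30 listed genes found in the promoter table, 4 had such a match in at least 1 window (13.3%; Hnrnpa3, Cir1, Tlk1 and Mtx2), as did 11.5% of all 27025 genes. Of all 32851 windows of this length 10.2% held it. A site for AP-1, TGACTCA, followed by GC would match the same core. A match of letters is a description, and no match says only that the core is not in this window.

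Cwc22, Plekha3 and Tlk1 showed the shared knockout pattern, 3 of 25 tested genes (12%), while 10.1% of all 22519 tested probe sets and 10.1% of tested genes at 1 probe set each did so. The share among the listed genes was close to that on the whole array, and the other genes of the interval, counted further on, had a higher one. Cwc22 and Plekha3 were lower in knockout cells and Tlk1 was higher. The pattern was taken as a limma adjusted p under 0.05 against wild type in both knockout groups, with the same direction, and no call between the knockout groups. Changes are log2 differences from limma, with p adjusted by the method of Benjamini and Hochberg over all tested probe sets.

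Cwc22 stood out among the 3 by size. It encodes a splicing factor that places the exon junction complex on spliced transcripts, and it is known to lie in a segment whose copy number differs between mouse strains. Copy number was not measured here. Its signals were 581.1, 679.5 and 885.7 on wild-type arrays, 304.7, 376.8 and 327.0 on knockout arrays and 338.3, 369.2 and 352.3 with GSH. All 6 knockout arrays lay below the lowest wild-type array, and the knockout groups overlapped each other. Knockout cells had 2.10-fold lower signal (log2 change -1.07, SE 0.15, limma adjusted p = 2.4e-04), and knockout cells with GSH 2.00-fold lower (limma adjusted p = 1.9e-04). Between the knockout groups the change was 0.08 with a 95% interval of -0.25 to 0.40. Within set 2 the 2 differences from wild type were -0.89 and -0.83, and between the single arrays of set 3 they were -1.44 and -1.33.

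Cwc22 had 1 probe set under its symbol, so no other probe set could be set beside it. Of all tested genes, 104 (0.895%) had the same pattern and were at least as far from wild type as Cwc22 in both comparisons. With a minimum of 1.5-fold in both comparisons with wild type, Cwc22 was the 1 tested gene of the 25 near Nfe2l2 that kept the pattern (4.00%), against 3.32% of all tested genes. Where a call between the knockout groups also needed 1.5-fold, Wipf1 had the pattern as well. Over 20 fits, its change against wild type ranged from -1.20 to -0.86 in knockout and from -1.15 to -0.78 with GSH, with the highest limma adjusted p at 0.0095 and 0.0074.

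Plekha3 encodes an adaptor that binds a phosphoinositide on Golgi membranes. It read 1591.2, 1639.9 and 2727.4 in wild type, 1471.5, 1240.3 and 1793.9 in knockout and 1220.7, 1394.0 and 1871.4 with GSH. The array of set 3 was the highest in every group, and the groups overlapped. The log2 changes were -0.37 in knockout (limma adjusted p = 0.013) and -0.39 with GSH (adjusted p = 0.0064), with -0.01 between the knockout groups (95% interval -0.22 to 0.20). Without wild type replicate 5 the first call was lost (adjusted p = 0.080), as it was without knockout replicate 4 (adjusted p = 0.075). With the replicate number as a block in place of the set, the changes were -0.05 and -0.06 (adjusted p = 0.86 and 0.79), and Plekha3 no longer had the pattern. In comparisons with wild type that block makes no use of wild type replicate 5, the only array of its number. It also sets wild type replicate 4, of set 2, beside the knockout arrays of replicate 4, of set 3. A second Plekha3 probe set changed by -0.20 and -0.02 and was called in neither comparison (limma adjusted p = 0.10 and 0.89).

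Tlk1 encodes a kinase that acts on histone chaperones during DNA replication. Its signals were 1663.4, 1777.3 and 1717.3 in wild type, 1944.9, 2030.8 and 2010.3 in knockout and 1831.1, 2094.1 and 2018.1 with GSH. No knockout array fell as low as the highest wild-type array, but the step was small: 0.22 in knockout and 0.20 with GSH (limma adjusted p = 0.040 and 0.035), with -0.01 between the knockout groups (95% interval -0.17 to 0.14). Leaving out any 1 of the 6 wild-type and knockout arrays lost the first call (adjusted p = 0.060 to 0.14). With arrays centred on their medians it was 0.13, with an adjusted p of 0.45. The call with GSH was lost without any 1 wild-type array or GSH replicate 3 or 4 (adjusted p = 0.054 to 0.13). With the replicate block in place of the set both calls were lost (adjusted p = 0.13 and 0.11). Of the 4 tested Tlk1 probe sets, 2 had the pattern. The other 2 changed by 0.21 and 0.03 in knockout, not called, and were called higher with GSH than in wild type (0.50 and 0.68). Between the knockout groups these 2 changed by 0.29 and 0.65 (limma adjusted p = 0.059 and 0.026), so the latter was called higher with GSH.

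**Figure D1:**
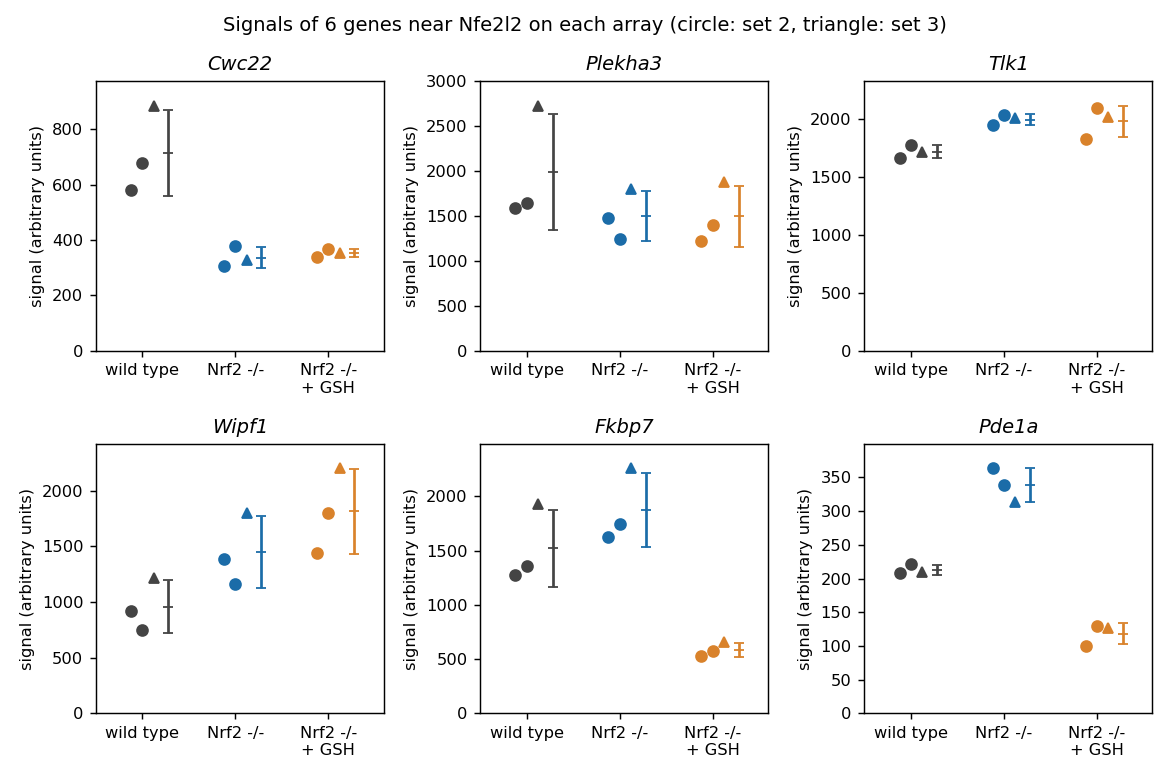
Signals in arbitrary units on the 9 arrays for 6 genes near Nfe2l2, with circles for set 2, triangles for set 3, and the mean ± SD of each group of 3 beside the points. Cwc22 is lower on all 6 knockout arrays than on any wild-type array, Plekha3 overlaps between groups, and Fkbp7 and Pde1a are lowest with GSH.

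The tested gene next to Nfe2l2 on either side did not have the pattern. Mtx2, which takes part in protein import at the mitochondrial outer membrane, read 2003.9, 1931.4 and 2525.3 in wild type, 1670.7, 1721.1 and 2113.5 in knockout and 1864.8, 1966.4 and 2351.3 with GSH. Within each set its knockout arrays lay below wild type, while across sets the groups overlapped. It was lower in knockout by limma (log2 change -0.23, adjusted p = 0.016), and -0.06 with GSH (adjusted p = 0.45). That call was lost without wild type replicate 3 or 5 (adjusted p = 0.068 and 0.067) or without knockout replicate 4 (adjusted p = 0.053), and the change was -0.04 with the replicate block in place of the set (adjusted p = 0.84).

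Agps, on the other side, makes ether lipids in peroxisomes. It changed by 0.12 in knockout (limma adjusted p = 0.38) and by 0.25 with GSH (adjusted p = 0.047, lost without wild type replicate 3 or 5 or GSH replicate 3, at 0.18, 0.13 and 0.18, and without knockout replicate 3, at 0.053).

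Over the 25 tested genes, 12 were called in knockout against wild type, beside 29.1% of all probe sets. Of these 8 were higher, beside 14.6% of all probe sets, and 4 lower, beside 14.6%. With GSH against wild type 14 were called, beside 44.7%: 5 higher, beside 22.5%, and 9 lower, beside 22.3%. Between the knockout groups 10 were called, beside 35.4%: 2 higher with GSH, beside 18.4%, and 8 lower, beside 17%. At 1 probe set per gene, as the listed genes were taken, 32.4%, 48.0% and 39.5% of all tested genes were called in the 3 comparisons, against 48%, 56% and 40% of the 25. The share between the knockout groups was close to that of all tested genes. The median size of the change in knockout, without sign, was 0.23 for the 25 genes and 0.22 for all tested genes. It was 0.25 and 0.31 with GSH against wild type, and 0.18 and 0.25 between the knockout groups. The comparisons share arrays, and the counts are those of genes that passed the filter. The groups did not overlap for 6 of the 25 genes between knockout and wild type (30.2% of all probe sets), for 9 with GSH against wild type (43.4%) and for 7 between the knockout groups (33.6%). Centring arrays on their medians moved the median change of all probe sets by -0.09, -0.15 and -0.06 in the 3 comparisons. Calls over all probe sets, 3278 higher and 3282 lower in knockout, became 2063 and 3810. With GSH against wild type, 5062 and 5012 became 3177 and 6533, and with GSH against knockout 4138 and 3826 became 2915 and 3897.

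**Figure D2:**
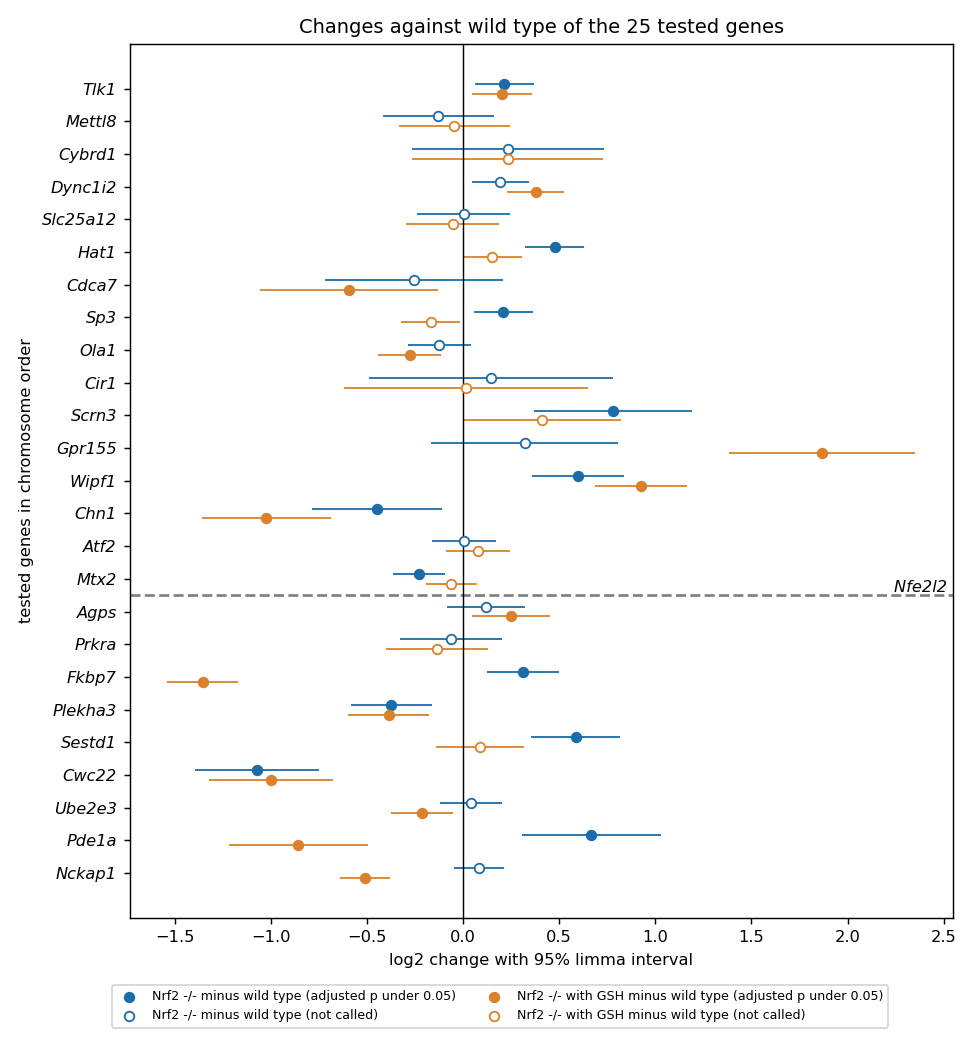
Log2 change against wild type with its 95% limma interval for the 25 tested genes in chromosome order, knockout in blue and knockout with GSH in orange, filled where the adjusted p was under 0.05. The 2 changes lie close together for Cwc22, Plekha3 and Tlk1, and apart for Fkbp7, Pde1a, Gpr155 and Nckap1.

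Of the 25 genes, 10 were called between the knockout groups, 3 had the shared knockout pattern, 2 were called in knockout against wild type alone, 4 with GSH against wild type alone, and 6 in none of the 3 comparisons. Over all tested genes these classes held 39.5%, 10.1%, 3.31%, 8.34% and 38.8%. Without a set term in the fit 19 calls of the 25 genes were lost, and with the replicate block in its place 14, beside the change of sign of Sp3.

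Among genes of transcription and chromatin, Hat1 and Sp3 were higher in knockout than in wild type and lower with GSH than without it. Hat1 encodes the acetyltransferase of newly made histone H4. It read 1193.0, 1243.0 and 1539.8 in wild type, 1776.0, 1761.2 and 1969.5 in knockout and 1442.0, 1383.0 and 1570.2 with GSH. All 3 knockout arrays were above every other array. The log2 change was 0.48 in knockout (limma adjusted p = 3.7e-04) and -0.33 from knockout to GSH (adjusted p = 0.0034). With GSH against wild type it was 0.15 (adjusted p = 0.098).

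Sp3, a zinc finger factor of GC-rich promoters, also rose in knockout and fell from there with GSH, with overlapping groups. It changed by 0.21 in knockout (limma adjusted p = 0.045) and by -0.38 from knockout to GSH (adjusted p = 0.0014). With GSH against wild type it was -0.17 (95% interval -0.32 to -0.01, adjusted p = 0.073). The call in knockout was lost without any 1 of the 3 wild-type arrays, knockout replicate 2 or 4, or GSH replicate 3 (adjusted p = 0.054 to 0.19), and the change was 0.12 at an adjusted p of 0.45 with median centring. With the replicate block in place of the set, Sp3 changed by -0.03 in knockout (adjusted p = 0.91) and by -0.40 with GSH against wild type (adjusted p = 0.043). Cdca7, a chromatin factor of dividing cells, was lower with GSH than in wild type (-0.59, adjusted p = 0.039), a call lost without GSH replicate 2 (adjusted p = 0.15), GSH replicate 4 (0.056) or any 1 wild-type array (0.052 to 0.13). With the replicate block in place of the set it was -0.25 (adjusted p = 0.35). Atf2, a stress-activated transcription factor, and Cir1, a corepressor of Notch signalling, were not called in any comparison. For Atf2 the change in knockout was 0.01 with a 95% interval of -0.16 to 0.17, and for Cir1 0.15 with one of -0.49 to 0.78.

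Sp5, a transcription factor switched on by Wnt signals, was left out by the filter because 2 groups were dim. It read 64.1, 39.6 and 57.3 in wild type, 42.1, 31.6 and 6.3 in knockout and 339.9, 322.2 and 284.5 with GSH. Every GSH array was above every other array. No knockout array and 2 of 3 wild-type arrays were above the control level. Its signal with GSH was at least 5.83-fold that in knockout and at least 5.57-fold that in wild type, taken against the control level where that was higher (limma adjusted p = 3.0e-04 and 0.0044 with no filter). Gad1, which makes the transmitter GABA, was also dim, at 6.4 to 98.4 in wild type, 24.1 to 32.4 in knockout and 64.7 to 121.8 with GSH, and no comparison was called with no filter (limma adjusted p = 0.76, 0.25 and 0.14). Calls from the fit with no filter are not part of the counts above.

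The 3 tested signalling genes, Pde1a, Gpr155 and Chn1, were all called between the knockout groups, as were 39.5% of all tested genes. Pde1a encodes a calmodulin-dependent enzyme that breaks down cyclic nucleotides. It read 207.9, 221.0 and 210.1 in wild type, 363.4, 339.1 and 313.7 in knockout and 99.8, 129.2 and 126.2 with GSH. The 3 groups did not overlap, with knockout highest and GSH lowest. The log2 change was 0.67 in knockout (limma adjusted p = 0.011), -0.86 with GSH against wild type (adjusted p = 0.0013) and -1.52 from knockout to GSH (adjusted p = 2.2e-05). The first call was lost with the replicate block in place of the set (adjusted p = 0.078). The summed fibroblast markers were also highest in knockout and lowest with GSH, as given above, and their part in this result was not tested. In these bulk samples fewer cells of a type and less RNA per cell cannot be told apart.

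Gpr155, a lysosomal membrane protein that senses cholesterol, read 127.6, 108.9 and 194.3 in wild type, 219.7, 135.9 and 175.9 in knockout and 392.6, 488.5 and 684.4 with GSH. The GSH arrays were the 3 highest, and the other groups overlapped. It was 2.92-fold higher with GSH than in knockout (log2 change 1.55, limma adjusted p = 2.0e-04) and 3.65-fold higher than in wild type (adjusted p = 3.4e-05). The change in knockout was 0.32 (adjusted p = 0.31).

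Chn1, which turns off the small GTPase Rac, fell stepwise. It read 306.3, 285.3 and 343.6 in wild type, 250.9, 202.2 and 233.6 in knockout and 145.9, 138.3 and 177.6 with GSH, with no overlap between groups. The change was -0.45 in knockout (limma adjusted p = 0.049), -1.02 with GSH against wild type (adjusted p = 2.2e-04) and -0.58 from knockout to GSH (adjusted p = 0.012). With knockout arrays paired by their number in a fit of the 6 knockout arrays the last had an adjusted p of 0.061, and without knockout replicate 2 it was 0.053. The call in knockout was lost without any 1 of the 3 wild-type arrays, knockout replicate 3 or 4, or GSH replicate 3 or 4 (adjusted p = 0.051 to 0.17). Pde11a, another phosphodiesterase gene, and Ppp1r1c, an inhibitor of protein phosphatase 1, were below the filter at 12.8 to 75.0 and 46.8 to 134.2 over the 9 arrays.

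Of the cytoskeletal genes, Wipf1 was higher and Nckap1 lower with GSH. Wipf1 encodes a partner of the actin regulator WASP that is abundant in blood cells. It read 917.4, 745.7 and 1212.4 in wild type, 1384.1, 1158.9 and 1796.8 in knockout and 1439.4, 1797.0 and 2200.0 with GSH. Within each set both knockout groups were above wild type. The change was 0.60 in knockout (limma adjusted p = 0.0017) and 0.93 with GSH (adjusted p = 3.3e-05). The step between the knockout groups, 0.33, was called at an adjusted p of 0.037 but not with those arrays paired by number (adjusted p = 0.055), nor without knockout replicate 3 or 4 or GSH replicate 3 or 4 (0.075 to 0.15). A second Wipf1 probe set had the shared knockout pattern, at 0.71 and 0.85 against wild type and 0.14 between the knockout groups (limma adjusted p = 6.9e-05, 6.6e-06 and 0.21). The summed macrophage markers were also lowest in wild type, and their part in this result was not tested.

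Nckap1, a subunit of the WAVE complex that starts actin branches, read 4998.4, 4780.4 and 5103.6 in wild type, 5051.1, 5489.3 and 5220.6 in knockout and 3539.0, 3402.4 and 3522.6 with GSH. The GSH arrays were the 3 lowest, 1.51-fold below knockout (log2 change -0.59, limma adjusted p = 1.3e-05) and 1.42-fold below wild type (adjusted p = 3.1e-05). In knockout the change was 0.08, with a 95% interval of -0.05 to 0.21.

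Sestd1, a lipid-binding protein with spectrin repeats, was higher in knockout than in both other groups. It read 754.1, 599.6 and 752.6 in wild type, 1078.7, 1086.6 and 983.1 in knockout and 778.3, 739.3 and 710.1 with GSH. All 3 knockout arrays were above every other array. The change was 0.59 in knockout (limma adjusted p = 0.0016) and -0.50 from knockout to GSH (adjusted p = 0.0031), and 0.09 with GSH against wild type (95% interval -0.14 to 0.32). A second Sestd1 probe set gave 0.38 and -0.33 (adjusted p = 0.025 and 0.037). Dync1i2, a chain of the dynein motor, changed by 0.19 in knockout (adjusted p = 0.0500, just over the threshold and not called). With GSH against wild type it changed by 0.38 (adjusted p = 7.6e-04). The latter was 0.23 at an adjusted p of 0.072 with median centring.

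Protein folding and turnover genes were led by Fkbp7, a prolyl isomerase of the endoplasmic reticulum. It read 1277.8, 1358.4 and 1928.4 in wild type, 1624.8, 1743.4 and 2259.9 in knockout and 529.0, 576.6 and 656.4 with GSH. All 3 GSH arrays lay below every other array, and within each set knockout was above wild type. The change was -1.67 from knockout to GSH, a 3.17-fold fall (limma adjusted p = 4.4e-08), and -1.35 against wild type (adjusted p = 1.7e-07). In knockout it was 0.31 (adjusted p = 0.017), lost without wild type replicate 3 or 4 or knockout replicate 3 or 4 (0.053 to 0.086) and 0.22 at an adjusted p of 0.20 with median centring. Fibroblast markers fell with GSH on the same arrays, and their part in this result was not tested. Fkbp7 is the tested gene beside Plekha3, whose change between the knockout groups was -0.01.

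Ube2e3, a ubiquitin-conjugating enzyme, was lower with GSH than in knockout (-0.26, limma adjusted p = 0.017) and than in wild type (-0.21, adjusted p = 0.033), with overlapping groups. The first call was lost without knockout replicate 2 or 4 or GSH replicate 4 (adjusted p = 0.063 to 0.10). The second was lost without any 1 wild-type array or GSH replicate 2 or 4 (0.055 to 0.15), and both were lost with the replicate number in place of the set in the fit of all arrays (0.080 and 0.46). Scrn3, whose function is little known, read 641.7, 508.2 and 451.8 in wild type, 1114.9, 1310.6 and 511.1 in knockout and 923.7, 970.6 and 385.8 with GSH. The arrays of set 2 separated the genotypes and that of set 3 did not. The change in knockout was 1.08 in set 2 and 0.18 in set 3, or 0.78 over both (limma adjusted p = 0.0088). With the replicate block in place of the set it was 0.49 (adjusted p = 0.19). From knockout to GSH it was -0.37 (adjusted p = 0.15), called with those arrays paired by number (adjusted p = 0.019). A second Scrn3 probe set changed by -0.11 in knockout and was not called.

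Genes of RNA processing, lipids and mitochondria included few other calls beside Cwc22, Plekha3, Mtx2 and Agps. Ola1, a translation-linked ATPase, was lower with GSH than in wild type (-0.28, limma adjusted p = 0.011). With the replicate block in place of the set that change was -0.13 (adjusted p = 0.40). Prkra, which activates the antiviral kinase PKR, Mettl8, which methylates mitochondrial transfer RNA, Slc25a12, the mitochondrial aspartate and glutamate carrier, and Cybrd1, a ferric reductase, were not called in any comparison. Their changes in knockout were -0.06, -0.13, 0.00 and 0.23. The 95% intervals reached from -0.33 to 0.20 for Prkra, -0.42 to 0.16 for Mettl8, -0.24 to 0.25 for Slc25a12 and -0.26 to 0.73 for Cybrd1, so changes of those sizes were not resolved. Osbpl6, a sterol-binding protein gene, was below the filter at 17.8 to 71.1.

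For 9 of the 25 genes more than 1 probe set passed the filter, 23 in all. Both probe sets of Wipf1 and both of Sestd1 were called higher in knockout, 2 of 4 for Tlk1, 1 of 2 for Scrn3 and 1 of 2 (lower) for Plekha3. None was called in knockout for Slc25a12, Ola1, Atf2 or Agps. No gene had probe sets called in opposite directions in knockout. No source used here places the probes in their transcripts.

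**Figure D3:**
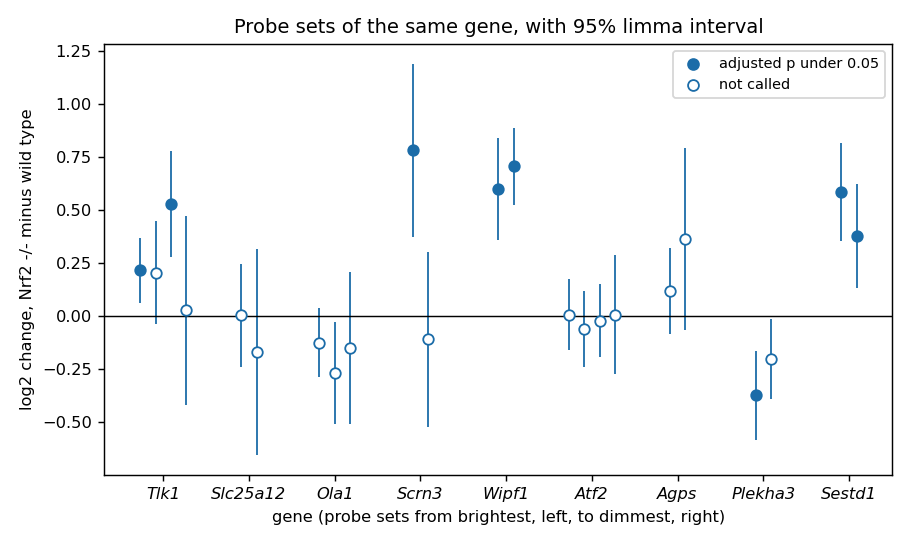
Log2 change in knockout against wild type with its 95% limma interval for the 23 tested probe sets of the 9 genes that had more than 1, from the brightest to the dimmest within a gene, filled where the adjusted p was under 0.05. The probe sets of Atf2 all lie near 0, those of Wipf1 and Sestd1 lie above it, and those of Scrn3 and Plekha3 were called for 1 of 2.

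Genes that lie between the outermost of the listed genes but are not in the list were also counted, in the order of the RefSeq table (GRCm38.p6). Of 19 such tested genes, 5 had the shared knockout pattern (26.3%), against 10.1% of all tested genes. Together with the 25 they made 8 of 44 (18.2%). The 5 were Dcaf17 (0.72 in knockout and 0.84 with GSH), Metap1d (0.91 and 0.85) and Atp5g3 (0.28 and 0.24), which were higher, and Dlx2 (-0.89 and -0.95) and Dnajc10 (-0.37 and -0.50), which were lower. Metap1d encodes a mitochondrial methionine aminopeptidase, Atp5g3 a subunit of the mitochondrial ATP synthase, Dlx2 a homeobox factor and Dnajc10 a disulfide reductase of the endoplasmic reticulum. Dnajc10 read 3724.8, 3850.4 and 4304.2 in wild type, 3115.0, 2885.2 and 3202.1 in knockout and 2635.0, 2723.0 and 3052.0 with GSH, so that all 6 knockout arrays were below wild type (limma adjusted p = 8.6e-04 and 4.0e-05). The number of the 19 with the pattern was 4 to 7 when 1 array was left out. The 70th percentile filter left Dcaf17, Metap1d and Dlx2 untested as too dim, and the count was then 2. It was 1 without a set term and 1 with the replicate block in place of the set, where Dcaf17 kept both calls and Metap1d, Dlx2, Atp5g3 and Dnajc10 lost that in knockout (adjusted p = 0.13, 0.20, 0.19 and 0.079).

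By order along the chromosome, 8 of the 50 tested genes nearest to Nfe2l2, 25 on each side, had the pattern (16.0%). These were the same 8 genes as those counted in the interval. The share was 4 of 50 (8.00%) for the next 25 on each side, 16 of 100 (16.0%) for the next 50 on each side, 12 of 200 (6.00%) for the next 100 and 53 of 522 (10.2%) beyond. The share did not fall steadily with distance. On chromosome 2 outside the interval it was 9.68% of 878 genes. Over 20 chromosomes (the autosomes and X) it ran from 6.58% to 13.3% with a median of 10.1%, and chromosome 2 with 10.2% ranked 8 from the highest.

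**Figure D4:**
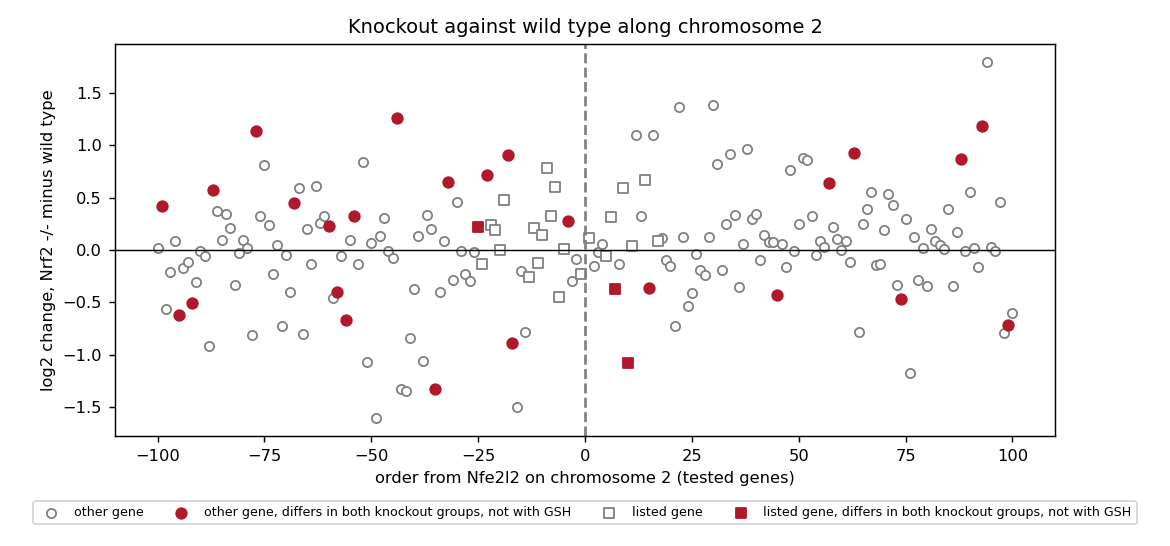
Log2 change in knockout against wild type for tested genes up to 100 genes from Nfe2l2 on either side, by order on chromosome 2, with listed genes as squares and genes with the shared knockout pattern in red. Red points lie on both sides of Nfe2l2 and above and below 0, and Cwc22 at order 10 is the lowest listed gene.

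**Figure D5:**
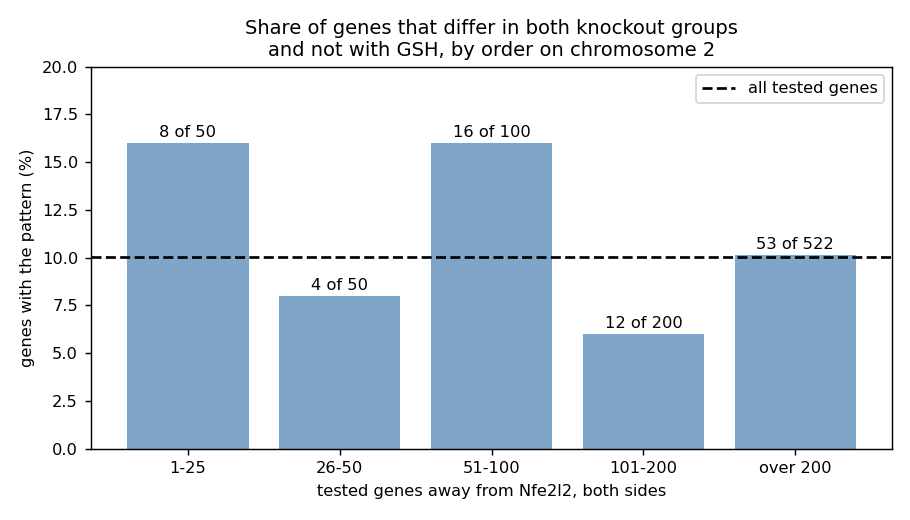
Percent of tested genes with the shared knockout pattern by distance in genes from Nfe2l2 on chromosome 2, both sides together, with the counts above the bars and a dashed line at the 10.1% of all tested genes. The shares of 16.0%, 8.00%, 16.0%, 6.00% and 10.2% do not fall steadily with distance.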

How the data were processed

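The authors deposited 1 intensity per probe set on a linear scale for each of 9 Affymetrix Mouse 430 2.0 arrays (platform per the series design text). Every array had the same 2% trimmed mean, 500.0, which is what scaling to a common target gives; no source used here names the software. Of 45101 probe sets, 64 controls were left out. Intensities were taken to log2 (2 values at 0 set to 0.1) and probe sets below the median mean log2 signal (geometric mean 116) were left out, which kept 22519. A single symbol was given for 34945 probe sets, more than 1 for 932, and none for 9160. Of 11620 tested genes 11587 were matched to RefSeq by gene identifier for chromosome order.

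One limma fit (3.58.1, R 4.3.3) covered the 9 arrays, with group and set as terms and a trend on intensity (residual degrees of freedom 5, prior 6.08). Probe sets were called at a Benjamini-Hochberg adjusted p under 0.05. The procedure was tested on simulated data with few changed probe sets and a single size of change, larger than those of Plekha3 and Tlk1. Smaller changes were not simulated. Intervals are 95% limma intervals. Arrays of a group correlated at 0.979 to 0.990 within a set and 0.950 to 0.968 across sets. Knockout arrays with and without GSH share numbers 2, 3 and 4. Their deviations from group means, with differences between sets left in, correlated at 0.32, 0.29 and 0.67. The main fit did not pair these arrays, and fits that paired them by number were alternatives. Crossed pairs within set 2 gave 0.39 and 0.24, so a shared number and a shared set cannot be told apart. Wild type and knockout arrays of number 3, both in set 2, gave 0.42. Those of number 4, in set 2 and set 3, gave -0.49. The main fit paired neither.

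The listed genes and the tests were chosen with earlier results of these data known. Every listed gene is named, with the other genes of the interval that had the pattern. Alternatives covered the filter, scaling, set term, replicate block, fold minimum and each array left out. In comparisons with wild type the replicate block mixes set with genotype and makes no use of wild type replicate 5, for every gene, as described for Plekha3. Why a call was lost with it was not tested.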

Additional observations from a re-analysis of the deposited data

How the results depend on the processing

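Cwc22 had the shared knockout pattern in all 24 settings in which it was counted, Plekha3 in 17, Wipf1 in 11 and Tlk1 in 8. Dync1i2 had it in 4, Scrn3 in 2 and Chn1 in 1. In fits of the 25 genes in 3 comparisons under 20 alternatives, 1286 of 1432 values kept their side of the threshold, 114 lost it, 31 gained it and 1 turned its sign: Sp3 in knockout was -0.027 with the replicate block in place of the set. A further 49 sign changes, counted among those kept, were of values called in neither fit. Counts follow in the order knockout, GSH against wild type, GSH against knockout. Without a set term the 25 genes gave 4, 7 and 6 calls and 1 with the pattern, all probe sets 2774, 6181, 4574 and 1024, and other interval genes 1 with the pattern. With the replicate block in place of the set there were 6 calls in knockout; all probe sets gave 3253 in knockout, 6586 with GSH against wild type and 1156 with the pattern, and other interval genes 1. With at least 1.5-fold for a call in each comparison, also between the knockout groups, they were 5, 7 and 4 calls, all probe sets 2885, 5455, 4151 and 1106, and other interval genes 3. By the submitters' fold criterion (unadjusted p, without its SEM part) they were 3, 6 and 3 with 1 of the pattern, all probe sets 2429, 4708, 3551 and 929, and other interval genes 3. With a gene's probe sets averaged, which tests fewer features, 3960, 5703, 4822 and 1226 genes were counted. The 70th percentile filter, under which Dcaf17, Metap1d and Dlx2 were not tested, gave 2 other interval genes with the pattern. A window of 50 tested genes on either side gave 9. Leaving out 1 array gave 6 to 13, 10 to 14 and 8 to 12 calls among the 25 genes and 1 to 4 with the pattern (1 without wild type replicate 5), and for all probe sets 4500 to 6825, 8184 to 10452, 6659 to 7847 and 1466 to 2275. Calls in knockout were 7 without wild type replicate 3 and 6 without knockout replicate 4. The replicate block on the 6 knockout arrays, chosen after seeing the data, changed 3 calls between the knockout groups, for Scrn3, Wipf1 and Chn1. For settings not named here the cause of lost calls was not tested. With 3 arrays a group, small changes were not resolved.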
